A study of Mus musculus with 47 samples.

Results

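Genes that astrocytes need for their everyday work in the brain were followed in hypothalamic tissue of Lep ob/ob mice that had received 1 injection of fibroblast growth factor 1 (FGF1). The set held 9 genes out of the 14221 in the count table, and each was found by its symbol alone, a rule that uses no measured value. The symbols themselves were chosen with earlier results of these data known. Its members were Aqp4, Gja1, Gjb6, Glul, Aldh1l1, Atp1b2, Slc4a4, Sox9 and Agt. All 9 were found, and each was detected in all 47 libraries.

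Astrocytes keep the fluid around neurons constant. They take up potassium and glutamate, turn glutamate into glutamine, buffer acid, move water at their endfeet on blood vessels, and share small molecules through gap junctions. When the brain is injured or stimulated they become reactive, and genes of this supporting work and genes of the reaction, such as the filament gene Gfap, need not move in the same direction. In the hypothalamus, astrocytes also take part in sensing nutrients and in the control of feeding.

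Each library was made from the hypothalamus of 1 mouse. All mice were male Lep ob/ob animals, which lack leptin and become obese and diabetic, and all carry the age label of 11 weeks whatever the day of collection. The treated mice received 3 µg of FGF1 into a brain ventricle (icv) and were collected on Day 1 (n = 10), Day 5 (n = 9) or Day 42 (n = 5). The controls received vehicle icv and were pair-fed, that is, given the mean amount of food that the FGF1 mice ate. The study's methods state pair-feeding for 5 days. The labels call these controls non-diabetic on Day 1 (n = 4), Day 5 (n = 7) and Day 42 (n = 5), and a further vehicle group of Day 5 (n = 7) is called diabetic. According to the study's methods, mice that did not become hyperglycemic were excluded and the FGF1 was the human protein, so what the label non-diabetic stands for is not settled by the sources used here. All libraries of 1 day share a preparation code that no other day has, so day and whatever that code stands for cannot be told apart, and FGF1 was compared with vehicle only within a day.

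The libraries held 1243280 to 47082403 counts on Day 1, 7579695 to 30009258 on Day 5 and 19416026 to 43934003 on Day 42. The Day 1 FGF1 library of replicate 1 was the shallowest, and its members rested on 68 (Gjb6) to 1288 (Atp1b2) counts. Values are given below as normalized counts, which are counts divided by the library total, expressed as CPM and scaled by TMM factors. Of 15 genes typical of the hypothalamus, 14 were in the table, and all of these reached at least 1 CPM in every library. On Day 1 the vehicle mouse of replicate 2 stood apart. Among the 4 vehicle mice it had the highest Aqp4, Gja1, Gjb6 and Slc4a4 and the lowest Aldh1l1 and Agt, and the summed markers of neurons, endothelial cells, tanycytes, meningeal fibroblasts, reactive astrocytes and choroid plexus were highest there too, at 7589, 365, 425, 228, 536 and 87.3 CPM. Where a member's call changed without it, the value without it is given in the same paragraph.

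On Day 1 after FGF1 the set moved strongly and in both directions. Glul, Gjb6, Agt, Gja1 and Slc4a4 fell, and Sox9 rose. A gene passed the test when the adjusted p of edgeR's quasi-likelihood test was below 0.05 and the log2 fold change was beyond 0.5 in size. Of the 9 genes, 1 passed as higher and 5 as lower, where 11.5% of all 14221 genes passed as higher and 8.05% as lower. By adjusted p alone 8 of 9 passed, against 45% of all genes. In 7 of 9 the FGF1 and vehicle mice did not overlap, against 14.4% of all genes. The median log2 fold change of the 9 genes was -0.62, and that of all genes was 0.0067. Leaving out the shallow Day 1 library left 1 higher and 5 lower. Without vehicle replicate 2 the counts were 3 higher and 4 lower, against 10.0% and 6.39% of all genes. In bulk tissue, fewer cells of a type and less RNA per cell cannot be told apart.

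**Figure D1:**
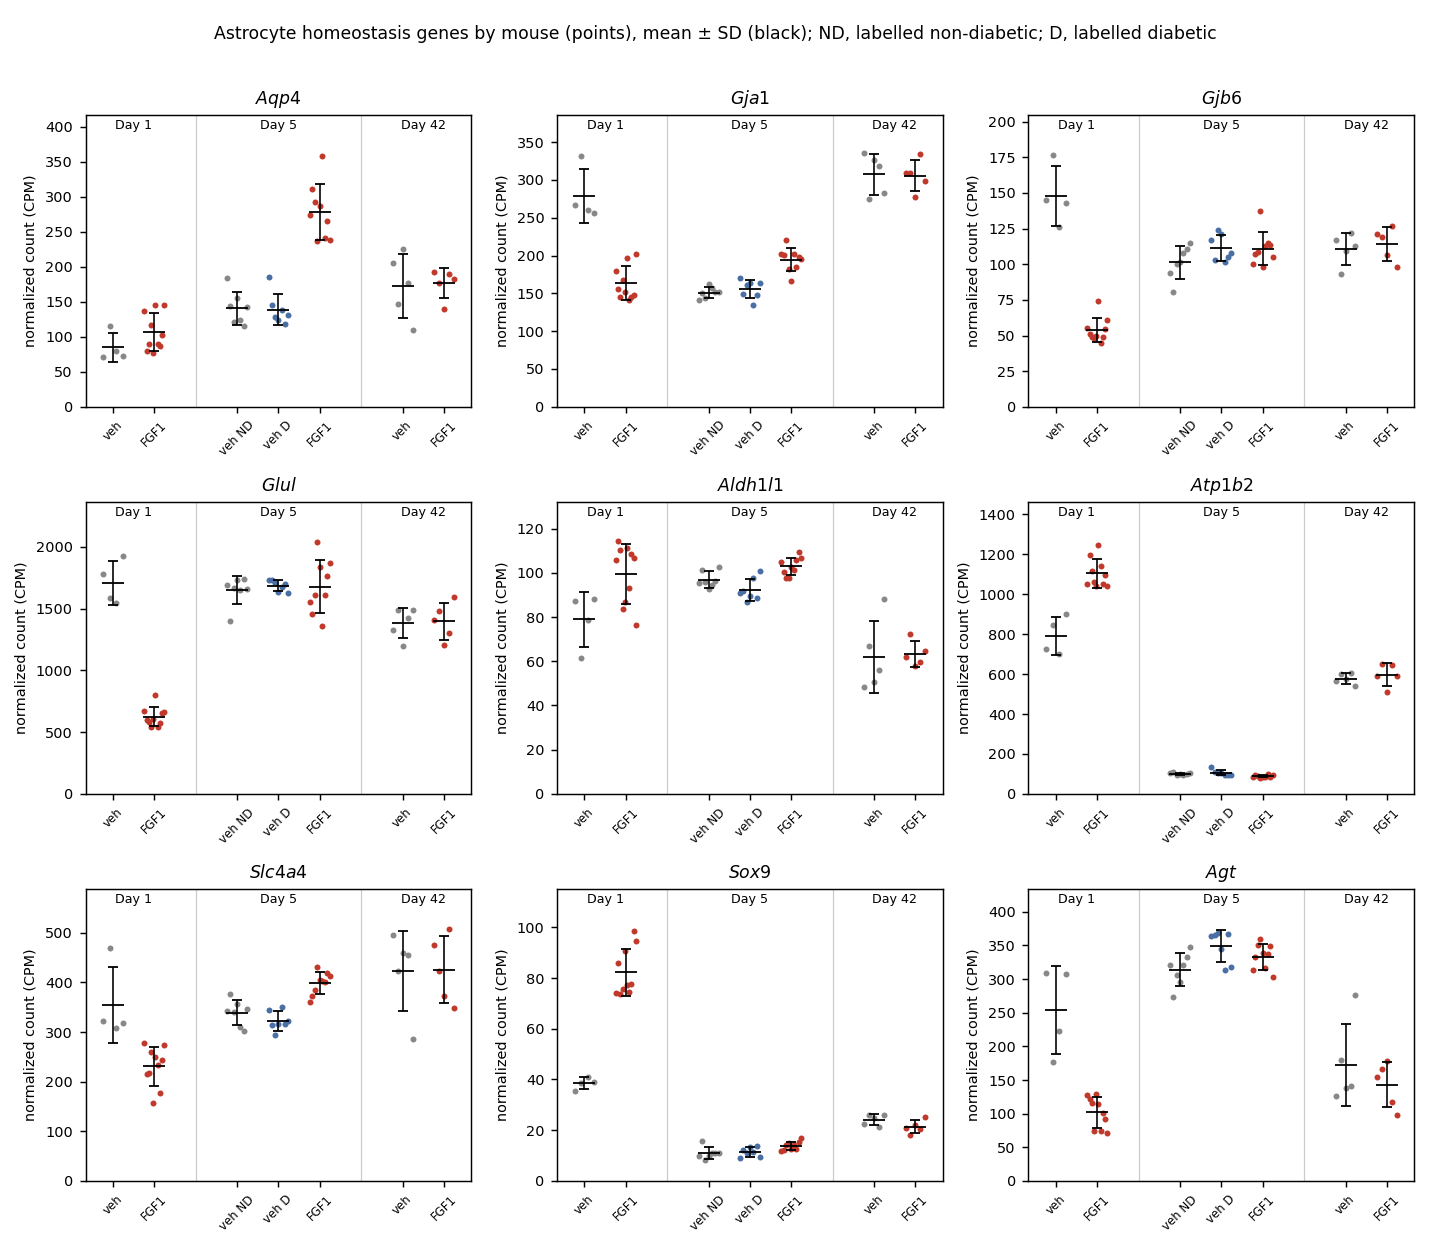
Normalized counts (CPM, vertical axis, starting at 0) of the 9 genes in each of the 47 mice, grouped along the horizontal axis by treatment and day; points are mice, and black marks are the mean ± SD. On Day 1 the FGF1 mice lie below every vehicle mouse for Gja1, Gjb6, Glul, Slc4a4 and Agt and above every vehicle mouse for Atp1b2 and Sox9, and on Day 5 the FGF1 mice lie above both vehicle groups for Aqp4.

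On Day 5 fewer members passed. Against vehicle labelled non-diabetic, Aqp4 alone passed the test (1 higher and 0 lower of 9; 1.31% and 0.232% of all genes passed as higher and lower). By adjusted p alone 3 passed, Aqp4, Gja1 and Sox9, against 4.65% of all genes, and in 2 genes, Aqp4 and Gja1, the groups did not overlap, against 3.93%. Against vehicle labelled diabetic, Aqp4 again was the 1 gene past both thresholds, in the higher direction (2.36% of all genes were higher and 0.499% lower). By adjusted p alone 4 passed there, Aqp4, Gja1, Atp1b2 and Slc4a4, against 9.21% of all genes, and Aqp4 and Slc4a4 did not overlap, against 6.08%. These comparisons use the same 9 FGF1 libraries and are therefore not independent. The counts by adjusted p alone depended on the fit. In edgeR with the Day 5 libraries alone, 6 members passed against vehicle labelled non-diabetic, where 20.9% of all genes did, with Slc4a4 (adjusted p = 0.000161), Atp1b2 (0.0326) and Aldh1l1 (0.0362) added, and 6 passed against vehicle labelled diabetic, where 30.8% did. In limma 5 and 6 passed, where 24.1% and 33.0% of all genes did. With the 2 deepest FGF1 libraries left out, 2 and 3 passed, where 3.21% and 6.43% did, as Sox9 lost its call against the first group (adjusted p = 0.214) and Slc4a4 against the second (0.0972). Past both thresholds Aqp4 stayed the 1 member in each of these fits.

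Between the vehicle groups of Day 5, none of the 9 genes passed in edgeR (0 higher, 0 lower; 0% of all genes in either direction). The ranges of these groups overlapped in every member, and 0.0984% of all genes had separate ranges. At an unadjusted p below 0.05 in edgeR over all libraries there were 193 genes over the whole table and 0 members (Agt had p = 0.00438 in edgeR on the Day 5 libraries alone, and in limma Agt had 0.0182 and Gjb6 0.0483), and DESeq2 and limma also called 0 genes past both thresholds. The members' differences lay between -0.07 for Slc4a4 and 0.15 for Agt on the log2 scale, and the 95% interval of Agt ran from -0.13 to 0.44.

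On Day 42, 0 of the 9 genes passed the test in edgeR (0% of all genes in either direction passed), and no member had separate ranges, against 0.267% of all genes. At an unadjusted p below 0.05 in edgeR there were 776 genes over the table and 0 members, while in limma Aldh1l1 had p = 0.0204. DESeq2 and limma called 0 genes as well. The share of all genes depended on single libraries. Without FGF1 replicate 1 of Day 42 there were 25 genes higher and 6 lower, and without FGF1 replicate 2 there was 1 gene higher. No member was among them. A test that is not passed does not show that the groups were alike, and the intervals bound what could have been missed. The 95% interval was narrowest for Atp1b2, from -0.10 to 0.20, and widest for Aqp4, from -0.31 to 0.37.

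**Figure D2:**
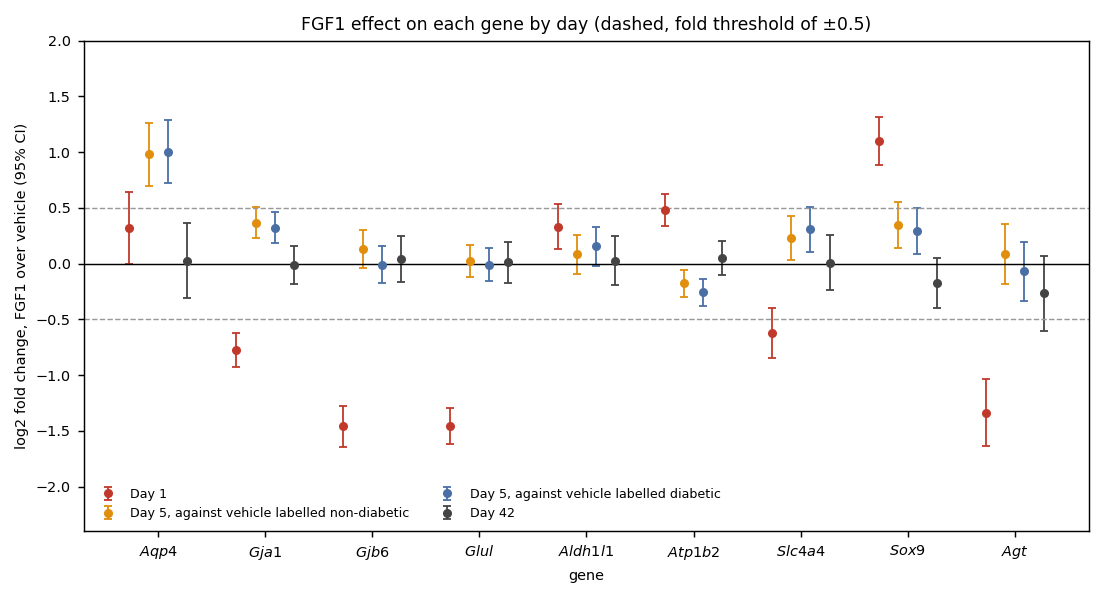
Log2 fold change of FGF1 over vehicle for each gene on each day (vertical axis, edgeR), with 95% confidence intervals as bars; colours mark the day and the control group, and dashed lines the fold threshold. Gjb6, Glul, Agt, Gja1 and Slc4a4 lie below 0 and Sox9 above 0 on Day 1, Aqp4 lies near 1 on Day 5, and every interval of Day 42 includes 0.

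Aqp4 encodes the main water channel of astrocytes, concentrated in the endfeet. Among the Day 1 mice, the 4 vehicle mice had 71.4, 116, 80.2 and 72.9 CPM, and the 10 FGF1 mice ran from 77.5 through a median of 96.7 to 145 CPM. The groups overlapped, with 4 of 10 FGF1 mice above every vehicle mouse. The log2 fold change was 0.32 (SE 0.16, 95% interval -0.0067 to 0.64), which did not pass (adjusted p = 0.104; exact permutation p = 0.150, where 0.000999 is the smallest that 10 against 4 mice allow). This value turned on 1 mouse, and without vehicle replicate 2 it was 0.50 (adjusted p = 0.0208), past both thresholds. Over the Day 1 alternatives the adjusted p of Aqp4 ran from 0.0208 to 0.283.

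Aqp4 rose on Day 5. Vehicle mice labelled non-diabetic ran from 116 through a median of 143 to 184 CPM, those labelled diabetic from 118 through 131 to 185, and the FGF1 mice from 237 through 275 to 358. The lowest FGF1 mouse exceeded the highest vehicle mouse of either group. This gave a log2 fold change of 0.98 (SE 0.14) against the first group, with adjusted p = 2.34e-06, and 1.01 (SE 0.14) against the second, with adjusted p = 1.04e-06. The exact permutation p was 8.74e-05 in each, the smallest that 9 against 7 mice can give.

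On Day 42 Aqp4 in the vehicle mice was 205, 147, 226, 176 and 110.2 CPM, and in the FGF1 mice 192, 178, 139, 190.2 and 182 CPM. The vehicle mice spread more widely, with an SD of 46.0 against 21.5, and they enclosed every FGF1 mouse. The log2 fold change was 0.03 (SE 0.17). The FGF1 effect of Day 5 exceeded that of Day 1 by 0.66 (SE 0.21, adjusted p = 0.0137), but without vehicle replicate 2 of Day 1 the difference was 0.48 (adjusted p = 0.105) and did not pass. From Day 5 to Day 42 the effect dropped by 0.95 (SE 0.22, adjusted p = 0.0162). Without vehicle replicate 3 of Day 42, which had the highest Aqp4, this drop was 0.84 and missed the threshold (adjusted p = 0.0547).

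Of 13 genes of the endfoot complex and of ion handling beside it, none was higher on Day 1, 6 passed by adjusted p alone (45% of all genes did) and 1 was lower (8.05% of all genes were), so these counts lay near the shares of all genes. The gene that fell was the potassium channel gene Kcnj10 (log2 fold change -0.54, SE 0.12, adjusted p = 0.000178). The counts of the other lists stand against the same shares of each comparison, given above with the members. The median of this list was -0.15. On Day 5 none passed both thresholds against either control, with 2 and 4 passing by adjusted p alone, and the medians were 0.12 and 0.12. On Day 42 the median was 0.01 and none passed.

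Gja1 and Gjb6 encode connexin 43 and connexin 30, the main gap junction proteins of astrocytes. Gja1 (chr10:56377330-56402513, plus strand, GRCm38) fell on Day 1. Its vehicle mice had 266, 331, 259.9 and 257 CPM, and its FGF1 mice ran from 141 through 154 to 201 CPM. Every FGF1 mouse lay below every vehicle mouse. This gave a log2 fold change of -0.77 (SE 0.08, adjusted p = 2.06e-11; exact permutation p = 0.000999), a level 1.71-fold lower.

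Gjb6 (chr14:57123303-57133611, minus strand) fell further. Its Day 1 vehicle mice had 145, 176, 126 and 143 CPM, and the FGF1 mice ran from 44.97 through 50.5 to 74.5 CPM, again with no overlap. The log2 fold change was -1.46 (SE 0.09, adjusted p = 1.16e-17), which is 2.75-fold lower. Gja1 fell by less than Gjb6, and the ratio of their counts inside a library, which needs no scaling factor, shows this directly. The ratio of Gja1 to Gjb6 was 1.80 to 2.06 in the vehicle mice of Day 1 and 2.65 to 3.47 in the FGF1 mice, without overlap. The mean log2 ratio rose by 0.69 (exact permutation p = 0.000999), and by 0.67 without the shallow library (exact permutation p = 0.00140).

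On Day 5 the connexins parted again, now with Gja1 slightly higher and Gjb6 near its controls. Gja1 ran from 141 through 151 to 162 CPM in vehicle labelled non-diabetic, from 135 through 161 to 169.9 in vehicle labelled diabetic, and from 167 through 198 to 220.4 after FGF1. All 9 FGF1 mice exceeded the first group and 8 of 9 exceeded the second. The log2 fold changes were 0.37 (SE 0.07, adjusted p = 0.000352) and 0.32 (SE 0.07, adjusted p = 0.00127), below the fold threshold. Gjb6 ran from 80.3 to 115 CPM, from 102 to 124 and from 97.9 to 137 in the same groups, and its log2 fold changes of 0.13 and -0.0079 did not pass (adjusted p = 0.495 and 0.980). The mean log2 ratio of Gja1 to Gjb6 was 0.23 higher after FGF1 than in vehicle labelled non-diabetic (exact permutation p = 0.0241) and 0.33 higher than in vehicle labelled diabetic (exact permutation p = 0.00175), with overlapping ranges in each case. Adjusted over the 5 ratio comparisons by the Benjamini-Hochberg method, these exact permutation values became 0.0402 and 0.00437, and that of Day 1 became 0.00437.

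On Day 42 Gja1 ran from 275 to 335 CPM in vehicle and from 277 to 334 after FGF1, and Gjb6 from 92.9 to 122 and from 98.2 to 127. The log2 fold changes were -0.0092 (95% interval -0.18 to 0.16) for Gja1 and 0.05 (-0.16 to 0.25) for Gjb6. The mean log2 ratio differed by -0.05 (exact permutation p = 0.492). In the vehicle mice the ratio itself was 2.504 to 2.99 on Day 42 and, over both groups, 1.30 to 1.87 on Day 5, so its level differed between days, each with its own preparation code.

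**Figure D3:**
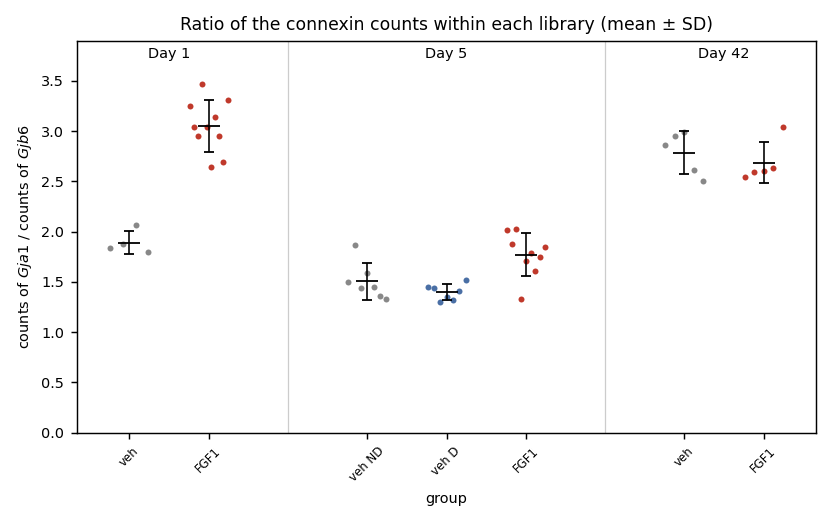
Counts of Gja1 divided by counts of Gjb6 in each library (vertical axis, starting at 0), by treatment and day; points are mice and black marks the mean ± SD. On Day 1 the FGF1 mice lie at 2.65 to 3.47, above all vehicle mice at 1.80 to 2.06, on Day 5 the groups overlap, and on Day 42 the groups lie at 2.504 to 3.04 together.

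Other connexin and pannexin genes did not follow astrocyte connexins as a group. The list of 10 genes also held a scaffold gene of cell junctions that is neither a connexin nor a pannexin gene. On Day 1, 3 of the 10 were higher, 2 were lower and the median was 0.19. Gjb1 (2.19, SE 0.24), a connexin of oligodendrocytes, Gja4, a connexin of blood vessels (1.01, SE 0.23) and Gjb2 (0.83, SE 0.32) rose, with adjusted p = 3.76e-10, 0.000392 and 0.0326. Gjc3 (-1.13, SE 0.13), also a connexin of oligodendrocytes, fell with adjusted p = 3.77e-10. On Day 5 none passed against vehicle labelled non-diabetic and 1 was higher against vehicle labelled diabetic. On Day 42 none passed.

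The 250 bases before the gene start in the RefSeq table are shown for Gja1, Gjb6 and Agt because these genes fell on Day 1, have 1 window each in the RefSeq table, and no exon of any annotated gene lies in it. Slc4a4 and Glul also fell and are not shown. Slc4a4 has 2 windows, at different starts, 1 of which holds an exon of Slc4a4, and the window of Glul holds exons of other genes. The sequences are from RefSeq (GRCm38.p6), 5′ to 3′ on the gene's strand. Capitals mark matches on either strand to the motifs searched, 7 in number. AP-1 factors were searched as TGANTCA and STAT factors as TTCNNNGAA. The cyclic AMP response element was taken as TGACGTCA and the E-box of basic helix-loop-helix factors as CACGTG. The box for TBP, the TATA-binding protein, was searched as TATAAA. The box for the nuclear factor Y complex was searched as CCAAT. The site of SP family factors was searched as GGGCGG. The RefSeq start of Gja1 lies 30 bases before its GENCODE start, and those of Gjb6 and Agt coincide. The windows lie at chr10:56377050-56377299 (plus strand), chr14:57133612-57133861 (minus strand) and chr8:124569707-124569956 (minus strand).
Gja1: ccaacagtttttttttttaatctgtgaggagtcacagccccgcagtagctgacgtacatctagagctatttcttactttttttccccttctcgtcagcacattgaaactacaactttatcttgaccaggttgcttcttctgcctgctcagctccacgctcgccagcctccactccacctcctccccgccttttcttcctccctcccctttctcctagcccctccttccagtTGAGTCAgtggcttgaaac
Gjb6: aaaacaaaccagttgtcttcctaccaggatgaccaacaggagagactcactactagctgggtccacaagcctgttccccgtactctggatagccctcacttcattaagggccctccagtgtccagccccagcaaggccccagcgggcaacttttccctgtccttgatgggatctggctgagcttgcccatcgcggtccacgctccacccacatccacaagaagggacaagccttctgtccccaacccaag
Agt: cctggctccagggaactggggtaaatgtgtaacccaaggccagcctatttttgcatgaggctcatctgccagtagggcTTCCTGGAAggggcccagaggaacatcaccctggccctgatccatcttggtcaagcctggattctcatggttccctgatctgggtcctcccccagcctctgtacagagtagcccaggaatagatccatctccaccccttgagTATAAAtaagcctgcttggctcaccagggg
Gja1 holds an AP-1 match, a motif that 6.75% of 32851 promoter windows hold. Agt holds a STAT match, present in 7.02% of windows, and a TATA match 30 bases before the start, present in 12.4%. Gjb6 holds no match to any of the 7 motifs. A match is a run of letters and says nothing about whether a factor binds there.

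Glul encodes glutamine synthetase, which turns glutamate and ammonia into glutamine and is found in the brain mainly in astrocytes. It was the most abundant member per kilobase of exon, at 514 ± 53.3 CPM per kb in the vehicle mice of Day 1 (SD, n = 4). The Day 1 vehicle mice had 1777, 1588, 1545 and 1928 CPM, and the FGF1 mice ran from 540.1 through 605 to 801 CPM. The highest FGF1 mouse was far below the lowest vehicle mouse. This gave a log2 fold change of -1.46 (SE 0.08, adjusted p = 1.27e-19; exact permutation p = 0.000999), a 2.74-fold lower level. Its gene (chr1:153899944-153909723, plus strand) shares exon positions with Teddm2 on the other strand and with the miRNA gene Mir8114, so reads there may have been divided between them if strand was not used in counting.

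On Day 5 Glul lay among its controls. It ran from 1400.2 through 1670.01 to 1739 CPM in vehicle labelled non-diabetic, from 1622 through 1702 to 1728 in vehicle labelled diabetic and from 1363 through 1613 to 2037 after FGF1. The FGF1 mice were the most dispersed, with an SD of 215 against 115 and 42.5. The log2 fold changes were 0.02 (95% interval -0.12 to 0.17) and -0.0070 (-0.15 to 0.14). The Day 42 ranges were 1198 to 1488 in vehicle and 1206 to 1592 after FGF1, with a log2 fold change of 0.01 (-0.17 to 0.20). The effect of Day 5 exceeded that of Day 1 by 1.48 (SE 0.11, adjusted p = 1.38e-14).

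Among 13 other genes that handle glutamate and glutamine, none fell past both thresholds on Day 1 and 2 rose, while 7 passed by adjusted p alone and the median was -0.08. Slc38a5 and Slc38a2, amino acid transporters that carry glutamine, rose by 1.22 (SE 0.30, adjusted p = 0.000687) and 0.73 (SE 0.14, adjusted p = 1.69e-05). On Day 5 Slc38a5 was higher by 1.52 (SE 0.27) and Slc7a11, the cystine/glutamate exchanger, by 0.93 (SE 0.16) against vehicle labelled non-diabetic, with adjusted p = 0.000144 and 7.45e-05. The same genes were higher by 1.60 and 0.93 against vehicle labelled diabetic. On Day 42 none of the 13 passed.

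Aldh1l1 encodes a folate enzyme, 10-formyltetrahydrofolate dehydrogenase, that is used as a marker of astrocytes. On Day 1 the vehicle mice had 87.5, 61.4, 78.7 and 87.9 CPM, and the FGF1 mice ran from 76.3 through 106 to 115 CPM. The groups overlapped, with 7 of 10 FGF1 mice above every vehicle mouse. The log2 fold change was 0.33 (SE 0.10, adjusted p = 0.00646; exact permutation p = 0.0270), below the fold threshold, and without vehicle replicate 2 it was 0.23 (adjusted p = 0.0849). On Day 5 the ranges were 92.6 to 103 CPM and 86.8 to 101 in the vehicle groups and 97.7 to 109 after FGF1. The log2 fold changes of 0.09 (SE 0.09) and 0.16 (SE 0.09) did not pass in edgeR (adjusted p = 0.716 and 0.291), while the exact permutation tests of these single values gave p = 0.0101 and 0.000874, unadjusted. Over the alternatives the adjusted p of Aldh1l1 ran from 0.0362 to 0.869 against the first group and from 0.000298 to 0.477 against the second, with the lowest values in edgeR on the Day 5 libraries alone. The Day 42 log2 fold change was 0.03 (95% interval -0.19 to 0.24), and 0.23 in limma (adjusted p = 0.959). Its gene (chr6:90486427-90600203, plus strand) overlaps Gm15756 and Gm45901, which were not in the table.

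Of 14 other enzymes of the folate and one-carbon pathway, 3 were higher and 0 lower on Day 1, with a median of 0.28. They were Mthfd2 (0.74, SE 0.10, adjusted p = 2.01e-08) and Shmt2 (0.72, SE 0.14, adjusted p = 4.04e-05), enzymes of the mitochondrial branch, and Gldc of glycine cleavage (0.64, SE 0.17, adjusted p = 0.00153). On Day 5 none passed against vehicle labelled non-diabetic and Shmt1, the cytosolic enzyme, was higher by 0.60 (SE 0.17, adjusted p = 0.0169) against vehicle labelled diabetic. The medians were 0.03 and 0.0048. On Day 42 the median was -0.05 and none passed.

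Atp1b2 encodes the beta 2 subunit of the sodium and potassium pump, through which astrocytes clear potassium. Among the Day 1 mice, the vehicle mice had 724, 844, 703 and 899 CPM, and the FGF1 mice ran from 1043 through 1079.7 to 1249 CPM. All 10 FGF1 mice exceeded every vehicle mouse. This gave a log2 fold change of 0.48 (SE 0.07, adjusted p = 3.88e-07; exact permutation p = 0.000999), just under the fold threshold. It came past that threshold without vehicle replicate 2 (0.51), without vehicle replicate 4 (0.55) and in limma (0.50).

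The level of Atp1b2 on Day 5 was far lower in every group. It ran from 93.6 through 100.1 to 108 CPM in vehicle labelled non-diabetic, from 95.7 through 106 to 134 in vehicle labelled diabetic and from 79.6 through 86.03 to 98.5 after FGF1. The FGF1 mice were the lowest on average, with 6 of 9 below all of the first group and 8 of 9 below all of the second. The log2 fold changes were -0.18 (SE 0.06, adjusted p = 0.0934) and -0.26 (SE 0.06, adjusted p = 0.00401), both below the fold threshold. Over the alternatives the adjusted p of Atp1b2 ran from 0.00355 to 0.146 against the first group and from 7.84e-05 to 0.0101 against the second. The Day 42 ranges were 539 to 606 CPM in vehicle and 510.2 to 649 after FGF1, with a log2 fold change of 0.05 (SE 0.07). Between Days 1 and 5 the effect dropped by 0.66 (SE 0.09, adjusted p = 4.34e-07). The gene lies at chr11:69599736-69605942 on the minus strand, and no other gene overlaps its exons.

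Of 10 other subunits and FXYD regulators of the pump, 1 was higher on Day 1 and none lower, with a median of 0.05. This was Fxyd5 (1.01, SE 0.17, adjusted p = 4.69e-06). On Day 5 Fxyd1, phospholemman, was the 1 gene past the test, higher by 0.86 (SE 0.15, adjusted p = 9.64e-05) and 0.81 (SE 0.15, adjusted p = 0.000135) against the vehicle groups. The medians of the list were -0.06 and -0.10, and on Day 42 the median was -0.0091 with none past the test.

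Slc4a4 encodes a sodium bicarbonate cotransporter that helps astrocytes to buffer acid. On Day 1 the vehicle mice had 322, 469, 309 and 317 CPM, and the FGF1 mice ran from 157 through 239 to 278 CPM. Every FGF1 mouse lay below every vehicle mouse. The log2 fold change was -0.62 (SE 0.11, adjusted p = 1.06e-05; exact permutation p = 0.000999). Without vehicle replicate 2, which held the value of 469, it was -0.46 (adjusted p = 0.00128) and no longer reached the fold threshold.

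On Day 5 the direction of the Slc4a4 values was opposite. Vehicle mice labelled non-diabetic ran from 302 through 343 to 377 CPM, those labelled diabetic from 293 through 317 to 349.9, and the FGF1 mice from 361 through 403 to 430.5. The FGF1 mice overlapped the first group, with 7 of 9 above it, and lay above the whole of the second. The log2 fold changes were 0.23 (SE 0.10, adjusted p = 0.193) and 0.31 (SE 0.10, adjusted p = 0.0379), below the fold threshold. Over the alternatives the adjusted p of Slc4a4 ran from 0.000161 to 0.354 against the first group and from 9.81e-07 to 0.0972 against the second, where the call was lost without the 2 deepest FGF1 libraries. The effect rose by 0.86 from Day 1 to Day 5 (SE 0.15, adjusted p = 1.64e-05), and on Day 42 it was 0.0090 (95% interval -0.24 to 0.25). The gene lies at chr5:88886818-89239653 on the plus strand.

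Of 13 other genes of acid and bicarbonate transport, 3 rose and 1 fell on Day 1, with a median of 0.19. Carbonic anhydrase 14, Car14, had the largest change of the list by size, -2.45 (SE 0.16, adjusted p = 3.53e-17). Car2, carbonic anhydrase 2, rose by 0.999 (SE 0.13, adjusted p = 2.05e-08), and the lactate transporters Slc16a3 and Slc16a1 rose by 1.498 (SE 0.25) and 0.67 (SE 0.10), with adjusted p = 2.95e-06 and 1.56e-07. On Days 5 and 42 none passed, with medians of -0.03 and -0.10 on Day 5 and 0.03 on Day 42.

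Sox9, a transcription factor of glial identity that marks astrocytes in the adult brain, rose on Day 1. The vehicle mice had 35.6, 38.6, 41.1 and 38.9 CPM, and the FGF1 mice ran from 73.6 through 77.3 to 98.4 CPM. The lowest FGF1 mouse lay far above the highest vehicle mouse. This gave a log2 fold change of 1.10 (SE 0.11, adjusted p = 1.11e-11; exact permutation p = 0.000999), and it stayed between 1.05 and 1.13 over the Day 1 alternatives.

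On Day 5 Sox9 was scarce, at 8.06 to 15.7 CPM, 8.84 to 13.6 CPM and 11.6 to 16.8 CPM in vehicle labelled non-diabetic, vehicle labelled diabetic and FGF1 mice. These values rest on 82 to 476 counts. The groups overlapped, and the log2 fold changes were 0.35 (SE 0.10, adjusted p = 0.0375) and 0.30 (SE 0.10, adjusted p = 0.0564), below the fold threshold. Over the alternatives the first adjusted p ran from 0.00135 to 0.214 and the second from 0.00937 to 0.271. On Day 42 the vehicle mice had 22.6, 25.9, 24.8, 21.3 and 26.1 CPM and the FGF1 mice 20.9, 18.2, 22.03, 20.6 and 25.3 CPM. The FGF1 values were the lower on average, with overlap, and the log2 fold change was -0.17 (SE 0.11, 95% interval -0.40 to 0.05; exact permutation p = 0.0952). The effect dropped by 0.75 from Day 1 to Day 5 (SE 0.15, adjusted p = 8.68e-05). Sox9 lies at chr11:112782224-112787760 on the plus strand.

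Of 15 other transcription factors of glia, 3 were higher and 2 lower on Day 1, where 11.5% and 8.05% of all genes were. By adjusted p alone 10 passed, against 45% of all genes, and the median was 0.16. Id3, Hes1 and Id2, which act downstream of BMP and Notch signals, rose by 0.77 (SE 0.21), 0.59 (SE 0.16) and 0.55 (SE 0.14), with adjusted p = 0.00287, 0.00222 and 0.00189. Sox8, a relative of Sox9, fell by 1.05 (SE 0.11, adjusted p = 7.84e-11) and Hes5 by 1.03 (SE 0.32, adjusted p = 0.00810). On Day 5 Id3 was the 1 gene past the test, by 1.09 (SE 0.18) and 1.01 (SE 0.18), with adjusted p = 4.56e-05 and 8.61e-05, and the medians were 0.20 and 0.17. On Day 42 none passed, with a median of 0.01.

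Agt encodes angiotensinogen, the precursor of the angiotensin peptides, which in the brain comes largely from astrocytes. Among the Day 1 mice, the vehicle mice had 309, 176, 223 and 308 CPM, and the FGF1 mice ran from 71.2 through 107 to 129 CPM. The vehicle mice were widely spread, with an SD of 65.7, and still all lay above every FGF1 mouse. The log2 fold change was -1.34 (SE 0.15, adjusted p = 3.35e-10; exact permutation p = 0.000999), a 2.52-fold lower level. Its gene lies at chr8:124556534-124569706 on the minus strand.

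On Day 5 Agt ran from 273 through 321 to 347 CPM in vehicle labelled non-diabetic, from 314 through 365 to 369 in vehicle labelled diabetic and from 302 through 338 to 359 after FGF1. The FGF1 mice lay between the vehicle groups by mean, and the log2 fold changes were 0.09 (95% interval -0.18 to 0.35) and -0.07 (-0.33 to 0.20). On Day 42 the vehicle mice had 126, 179.9, 138, 142 and 276 CPM and the FGF1 mice 155, 167, 179, 117 and 98.7 CPM. The ranges overlapped, 1 vehicle mouse was far above the rest, and the log2 fold change was -0.27 (SE 0.17, 95% interval -0.60 to 0.07). Without that mouse, vehicle replicate 5, it was -0.03, and over all mice left out in turn it ran from -0.36 to -0.03. Between Days 1 and 5 the effect rose by 1.42 (SE 0.20, adjusted p = 3.09e-07).

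Of 12 other genes of the renin angiotensin system, 1 was higher and 1 lower on Day 1, with a median of -0.02. Anpep, an aminopeptidase that trims angiotensin peptides, rose by 1.02 (SE 0.30, adjusted p = 0.00520). On Days 5 and 42 none passed. The medians were 0.03 and -0.06 on Day 5 and -0.00026 on Day 42.

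**Figure D4:**
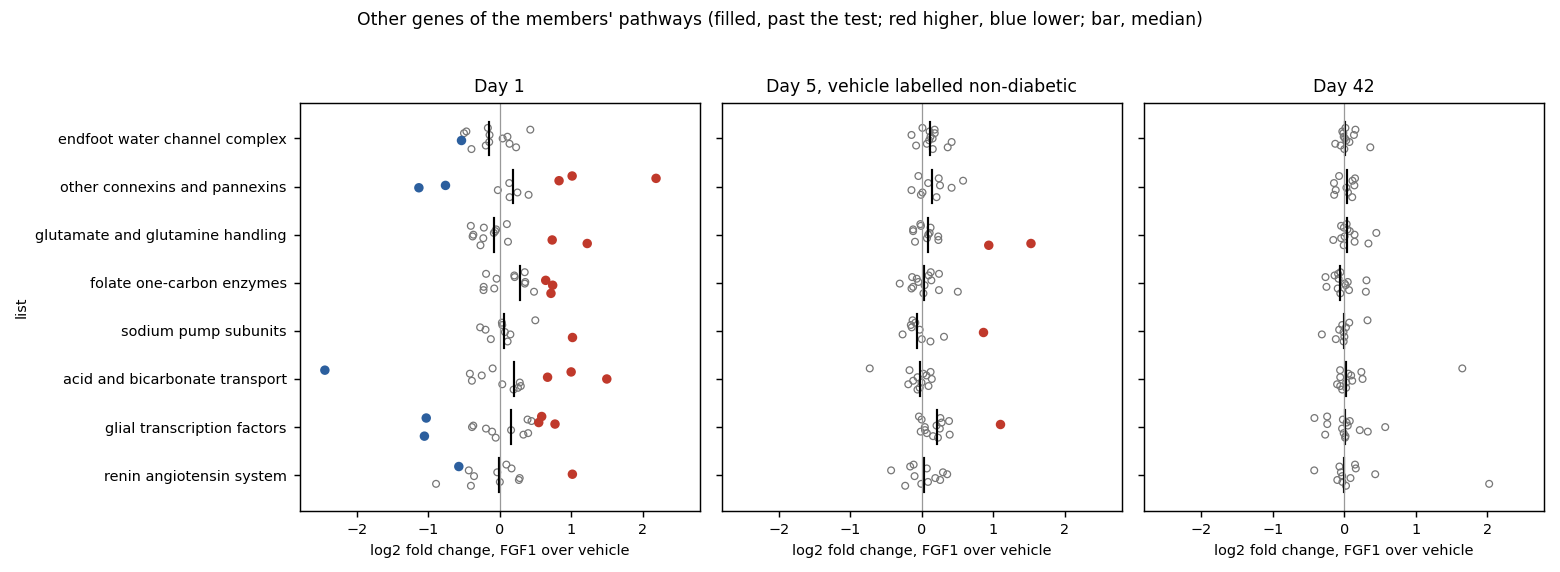
Log2 fold change of FGF1 over vehicle (horizontal axis) for the other genes of 8 pathway lists on Day 1, on Day 5 against vehicle labelled non-diabetic and on Day 42; filled points passed the test, open points did not, and bars are list medians. On Day 1 calls fall on either side of 0, with Car14 at -2.45 and Gjb1 at 2.19, on Day 5 the 4 filled points are all higher, and on Day 42 there are none.

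How far the response to FGF1 moved between days was tested as 1 log2 fold change minus another. From Day 1 to Day 5 it changed in 8 of 9 genes, upward in Gjb6 (1.59, SE 0.13), Glul, Agt, Gja1 (1.14, SE 0.10), Slc4a4 and Aqp4 and downward in Sox9 and Atp1b2. That is 6 higher and 2 lower, where 7.28% and 8.52% of all genes were. Without vehicle replicate 2 of Day 1, Aqp4 lost its call (0.48, adjusted p = 0.105) and 5 were higher, against 5.74% of all genes. Aldh1l1 gave -0.25 (SE 0.13, adjusted p = 0.171), and -0.14 without that mouse. From Day 5 to Day 42 edgeR called Aqp4, downward, and no other member (0 higher and 1 lower; 0.232% and 0.485% of all genes). Without vehicle replicate 3 of Day 42 that call was lost too (adjusted p = 0.0547). Sox9 gave -0.52 (SE 0.15, adjusted p = 0.0888) and Gja1 -0.38 (SE 0.11, adjusted p = 0.0904), which did not pass in edgeR over all libraries. In edgeR on the libraries of these days alone, Gja1 passed the adjusted p but not the fold threshold (-0.37, adjusted p = 0.0149). In limma Sox9 passed both thresholds (-0.57, adjusted p = 0.0485) and Gja1 the adjusted p (-0.40, adjusted p = 0.0318). From Day 1 to Day 42 it rose in Gjb6 (1.504, SE 0.14), Glul (1.47, SE 0.12), Agt (1.07, SE 0.22), Gja1 (0.77, SE 0.12) and Slc4a4 (0.63, SE 0.17) and fell in Sox9 (-1.27, SE 0.15). These are 5 higher and 1 lower, against 6.59% and 9.81% of all genes. Without vehicle replicate 2 of Day 1, Slc4a4 gave 0.48 (adjusted p = 0.0298), under the fold threshold, and 4 were higher, against 5.27% of all genes. The 3 differences share libraries, and each is also a difference between preparation codes.

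The order of the group means differed from gene to gene. Aqp4 was highest after FGF1 on Day 5, at 279 ± 39.8 CPM (SD, n = 9), and lowest in the vehicle mice of Day 1, at 85.2 ± 21.0 (n = 4). The group next below its top, FGF1 on Day 42 at 176 ± 21.5, was separated by more than the larger SD, and from there down to both vehicle groups of Day 5 no neighbours differed by more than that. For Gja1 the groups of Day 42 and the vehicle mice of Day 1, at 308 ± 26.99, 306 ± 20.6 and 279 ± 35.3 CPM, did not differ beyond their spread. Gjb6 and Glul were lowest after FGF1 on Day 1, at 53.8 ± 8.52 and 624 ± 77.8 CPM, each separated from the group above. Slc4a4 was lowest there as well, at 231 ± 39.997 CPM, and Agt likewise, at 102 ± 22.8 CPM.

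Sox9 and Atp1b2 were highest after FGF1 on Day 1, at 82.2 ± 9.36 and 1105 ± 71.7 CPM, with the vehicle mice of the same day next, at 38.5 ± 2.28 and 792 ± 94.4. Both were lowest on Day 5. With 0.5 CPM added to each mean, vehicle mice labelled non-diabetic stood 7.85-fold lower on Day 5 than on Day 1 for Atp1b2. This is a distance that 1.53% of all genes reached. For Sox9 the level was 3.40-fold lower, which 6.49% reached. Glul and Slc4a4 differed by 1.04-fold in the same comparison. Per kilobase of exon, Atp1b2 stood at 194 CPM per kb in the vehicle mice of Day 1, behind Glul and before Agt at 134, Gjb6 at 55.2 and the other 5 at 9.32 to 32.8.

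Mice of 1 group also differed among themselves in a patterned way. With the group means removed, Pearson's r between members over the 47 libraries ran from -0.53 to 0.70 with a median of 0.06, and 19 of 36 pairs were positive. Aqp4 went with Slc4a4 (r = 0.70) and Gja1 (r = 0.67), and Gja1 with Gjb6 (r = 0.62). Agt went with Aldh1l1 (r = 0.66) and against Slc4a4 (r = -0.53) and Aqp4 (r = -0.49). For Sox9 the r of largest size was that with Aqp4, at -0.19. The points share libraries, depth and scaling, so these are descriptions without a test. Without the library of fewest counts the extremes were r = 0.69 for Aqp4 and Slc4a4 and r = -0.61 for Agt and Slc4a4. A pair of vehicle mice stood apart in this pattern: within its group, replicate 2 of Day 1 was highest in Aqp4, Gja1 and Slc4a4 and lowest in Aldh1l1 and Agt, and replicate 5 of Day 42 was lowest in Aqp4 and Slc4a4 and highest in Aldh1l1 and Agt. Without both, chosen after seeing the data, the range over the pairs narrowed to -0.30 to 0.63 over 45 libraries. Agt then gave r = 0.45 with Aldh1l1, -0.29 with Slc4a4 and -0.30 with Aqp4, while Aqp4 gave 0.59 with Slc4a4 and 0.63 with Gja1, and Gja1 gave 0.59 with Gjb6.

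**Figure D5:**
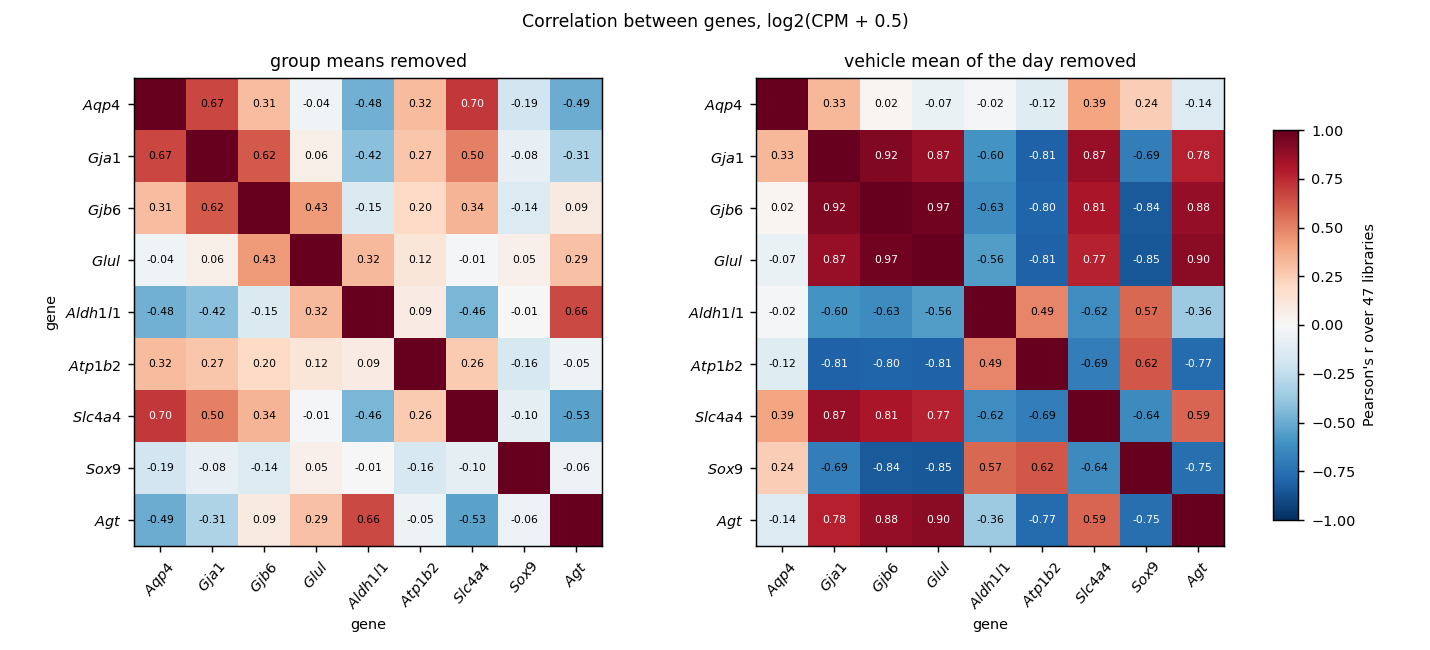
Pearson's r between the 9 genes over 47 libraries, from log2(CPM + 0.5), as colour and number. On the left the mean of each group was removed, and on the right the mean of the day's vehicle mice labelled non-diabetic, so that the treatment effect stays in; left, Aqp4, Slc4a4 and Gja1 are positive with each other and Aldh1l1 is positive with Agt, and right, Gja1, Gjb6, Glul, Slc4a4 and Agt are positive with each other and negative with Sox9 and Atp1b2.

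Measured from the vehicle mean of the day, the gene most like each member over the 47 libraries was, among 12174 genes with a mean of at least 5 CPM, Epb41l2 for Aqp4 (r = 0.87), Asrgl1 for Gja1 (r = 0.96), Bbox1 for Gjb6 (r = 0.97) and Prodh for Glul (r = 0.97). For Aldh1l1 it was Pfkl (r = 0.90), for Atp1b2 Fjx1 (r = 0.87), for Slc4a4 Chpt1 (r = 0.97), for Sox9 Serpina3n (r = 0.94) and for Agt Nkain4 (r = 0.94). The genes next in line were Prkd3, Gjc3, Etnppl, Csrp1, Tubb4b, Bhlhe40, Dtna, Fcgr2b and 5031439G07Rik, in the order of the members as first listed, at r = 0.83, 0.96, 0.97, 0.97, 0.88, 0.86, 0.96, 0.93 and 0.94. Prodh encodes the enzyme that starts the breakdown of proline, and Serpina3n is a protease inhibitor of reactive astrocytes. These values carry the treatment effect, and without the shallowest library they ran from 0.83 to 0.97.

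Markers of astrocytes changed as well on Day 1, when 11.5% of all genes were higher and 8.05% lower. The 18 other astrocyte markers summed to 4830.0 to 5839 CPM after FGF1 and to 6813 to 7581 in vehicle, with 1 higher, 7 lower and a median log2 fold change of -0.36. Some of these markers, Kcnj10 among the 7 lower, are also in the endfoot or glutamate lists above, so the lists are not separate. The 8 reactive astrocyte markers in the table summed to 2925 to 4578 CPM against 429 to 536, with 7 higher, Gfap by 2.81 (SE 0.19) and Vim by 3.31 (SE 0.18) among them. Their part in the members' changes was not tested.

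Markers of cells other than astrocytes were counted for that day too, where 11.5% of all genes were higher and 8.05% lower. The 10 oligodendrocyte markers summed to 2304 to 4280.0 CPM after FGF1 and 3719 to 5418 in vehicle, with 9 lower. The 12 neuron markers summed to 4889 to 6116 and 6382 to 7589 CPM, with none past both thresholds, and the 10 microglia markers to 286 to 396 and 242 to 283 CPM, with 7 higher and 1 lower. Of 9 oligodendrocyte precursor markers 3 were lower, of 10 endothelial markers 2 were higher and 1 lower, of 9 tanycyte markers 1 was higher and 1 lower, and of 9 ependymal markers 4 were lower. Of 5 choroid plexus markers that the table held, 1 was lower, and of 10 meningeal fibroblast markers 3 were higher and 3 lower. The endothelial, tanycyte and choroid plexus counts lay near the shares of all genes. Every marker in the table was detected in all libraries of Days 1 and 5, except 1 meningeal fibroblast marker that was at 0 in at least 1 Day 1 FGF1 library. Detection on Day 5 tells little, since its libraries had only 0 to 2 genes of the whole table at 0, against 83 to 539 on Day 1. Their part in the members' changes was not tested.

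On Day 5, when Aqp4 was the member that passed, the other astrocyte markers summed to 6563 to 7175 CPM after FGF1, 6009 to 6403 in vehicle labelled non-diabetic and 5874 to 6474 in vehicle labelled diabetic. Past both thresholds none of the 18 was called against the first group and 1 was higher against the second, but 7 and 9 passed by adjusted p alone, where 4.65% and 9.21% of all genes did. Of the 8 reactive markers 6 were higher against either group, where 1.31% and 2.36% of all genes were. Gfap was higher by 1.29 and 1.28 and Vim by 0.87 and 0.86. Oligodendrocyte markers summed to 6370.3 to 7257 CPM after FGF1 and to 4687 to 6185 and 4244 to 6329 in the vehicle groups, with 3 of 10 higher against each. Oligodendrocyte precursor markers (4 of 9 higher against each) and microglia markers (1 and 8 of 10 higher) included further calls, as did meningeal fibroblast markers (3 and 1 of 10 higher), tanycyte markers (1 of 9 higher against each and 1 lower against the second) and ependymal markers (1 of 9 higher against the second). No neuron, endothelial or choroid plexus marker passed, and the neuron markers summed to 3788 to 4478 CPM after FGF1 against 4467 to 4657 and 4238 to 4869 in the vehicle groups. Their part in the result of Aqp4 was not tested.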

How the data were processed

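Hypothalamic RNA from 47 mice was sequenced as bulk RNA-seq, 1 mouse a library. The authors deposited raw read counts per gene, made after alignment with STAR per the labels. The counting program and whether it used strand are not given in the sources used here. The sources write the build as GRCh38 although the organism is mouse. Gene positions were therefore taken by symbol from GENCODE M21 (GRCm38), where 14180 of 14221 symbols matched, and promoter windows from RefSeq (GRCm38.p6), which held windows for 6 of the 9 members.

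The deposited counts were tested in R 4.3.3 with edgeR 4.0.16 (TMM factors, quasi-likelihood fit with 1 mean for each of the 7 groups, no gene removed for low counts), with the Benjamini-Hochberg adjustment run across the whole table of 14221 genes. The thresholds were 0.05 for the adjusted p and 0.5 for the log2 fold change. The step was tested on simulated data. Single values were tested by two-sided exact permutation of log2(CPM + 0.5). The alternatives were DESeq2 1.42.0, limma 3.58.1 (voom with sample weights), other scalings, filters and pseudocounts, and leaving out libraries. Levels were computed in Python 3.11.15. No library pair agreed within sampling noise. Each library came from its own mouse, the labels give no replicate numbers that pair mice, and replicates were numbered in accession order.

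The 9 genes, the pathway lists and the marker lists were chosen with earlier results of these data known. Named genes were the members, up to 3 called genes of each pathway list, comparison and direction by smallest adjusted p, the 2 genes most like each member, and Gfap and Vim. Some genes that this rule names are not reported here. The preparation code in the deposited metadata, whose meaning the header does not give, and day cannot be told apart, and which of the sequencing instruments read which library is not given in the sources used here.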

Additional observations from a re-analysis of the deposited data

Results flagged for a closer look

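In 9 of 63 gene-by-group sets 1 mouse lay apart from the others of its group by Dixon's criterion, which chance alone meets in about 1 group of 20. For Aqp4 these were the highest vehicle mouse labelled diabetic on Day 5 (185 CPM, next 145) and the lowest FGF1 mouse of Day 42 (139 CPM, next 178). The same Day 5 vehicle mouse, replicate 1, was also the highest in Atp1b2 (134 CPM, next 108). Vehicle replicate 2 of Day 1 was the highest in Gja1 (331 CPM, next 266) and in Slc4a4 (469 CPM, next 322). Vehicle replicate 2 labelled non-diabetic on Day 5 was the lowest in Glul (1400.2 CPM, next 1654) and the highest in Sox9 (15.7 CPM, next 11.2). One FGF1 mouse of Day 5 was the highest in Gjb6 (137 CPM, next 115) and one FGF1 mouse of Day 1 in Glul (801 CPM, next 672).

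The FGF1 effect differed between days in 15 tests of the difference itself. From Day 1 to Day 5 the log2 effect was higher by 0.66 for Aqp4, 1.14 for Gja1, 1.59 for Gjb6, 1.48 for Glul, 0.86 for Slc4a4 and 1.42 for Agt, and it fell by 0.66 for Atp1b2 and fell by 0.75 for Sox9. From Day 5 to Day 42 it fell by 0.95 for Aqp4. From Day 1 to Day 42 it was higher by 0.77 for Gja1, 1.504 for Gjb6, 1.47 for Glul, 0.63 for Slc4a4 and 1.07 for Agt, and it fell by 1.27 for Sox9. Without vehicle replicate 2 of Day 1, Aqp4 from Day 1 to Day 5 (0.48) and Slc4a4 from Day 1 to Day 42 (0.48) did not pass, and without vehicle replicate 3 of Day 42 neither did Aqp4 from Day 5 to Day 42 (-0.84). Each of these is also a difference between preparation codes, from which day cannot be told apart.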

How the results depend on the processing

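No paired analysis was possible because the mice of different groups were separate animals numbered only in accession order. Over 26 alternative settings, 1003 of 1062 member values kept their direction and side of the threshold. Members called higher on Day 1 numbered 2 in limma (10.5% of all genes), 3 without a fold threshold (23.4%) and 1 to 3 on leaving out 1 mouse (3 without vehicle replicate 2, 10.0%, and 2 without vehicle replicate 4, 12.8%). Without a fold threshold Day 5 gave 3 higher against vehicle labelled non-diabetic (3.25% of all genes) and 3 higher (5.79%) and 1 lower (3.42%) against vehicle labelled diabetic, and the difference of Day 42 from Day 1 gave 2 lower (14.3%). For the difference of Day 42 from Day 5, limma gave 2 lower (0.534%) and leaving out 1 mouse 0 to 1 (0 without vehicle replicate 3 of Day 42, 0.338%). Log2 values near 0 changed sign. On Day 5 these were Glul against vehicle labelled non-diabetic (-0.014 in limma, -0.011 without the 2 deepest FGF1 libraries) and, against vehicle labelled diabetic, Gjb6 (0.017 with at least 10 counts in every library, 0.00087 with the libraries of that day alone) and Glul (0.017 and 0.00093). On Day 42 they were Aqp4 (-0.038), Slc4a4 (-0.045) and Agt (0.055) in limma and Gja1 with the size factors of DESeq2 (0.0040) and in DESeq2 (0.0040). For Day 42 minus Day 5 they were Glul (0.0084 with those size factors, 0.0084 in DESeq2, 0.070 in limma, 0.025 without the 2 deepest libraries, 0.0055 with both vehicle groups) and Aldh1l1 (0.13 in limma). On leaving out 1 mouse the Day 42 values ran from -0.098 to 0.14 for Aqp4, -0.047 to 0.024 for Gja1, -0.011 to 0.095 for Gjb6, -0.037 to 0.063 for Glul, -0.048 to 0.19 for Aldh1l1 and -0.10 to 0.072 for Slc4a4, and those of Day 42 minus Day 5 from -0.061 to 0.039 for Glul and -0.13 to 0.10 for Aldh1l1. Slc4a4 for Day 42 minus Day 1 dropped to 0.48 without vehicle replicate 2 of Day 1. The cause was not tested. The 4 vehicle mice of Day 1 and 5 mice a group on Day 42 limit the precision.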

Other observations

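The vehicle mice labelled non-diabetic, which received no FGF1, also differed in member levels from day to day, and the order of the days was not the same for all members. Atp1b2 had a mean of 792 CPM on Day 1, 100.5 on Day 5 and 577 on Day 42. Sox9 followed the same order, with 38.5, 11.0 and 24.1 CPM. Gja1 had 279, 151 and 308 CPM. Agt went the other way, with 254 CPM on Day 1, 314 on Day 5 and 172 on Day 42, and Aldh1l1 had 78.9, 96.9 and 62.0 CPM. Aqp4 was lowest on Day 1 (85.2 CPM) and highest on Day 42 (173 CPM), a log2 distance of 1.02 that 4.12% of all genes reached. Glul changed little between Days 1 and 5, by -0.05 on the log2 scale, and 94.3% of all genes lay at least as far apart. These levels are described without a test, since each day also had a preparation code of its own.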
